A study of Erythranthe guttata with 80 samples.

Results

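Linkage group 5 is 1 of the 14 chromosomes of the yellow monkeyflower *Mimulus guttatus*, and the genes described here are those of that chromosome that were expressed in coastal perennial or inland annual plants. A gene belonged to it when its id began with Migut.E, since the letter of an id stands for the linkage group. Of the 1829 genes of linkage group 5 (LG5) in the table, 993 reached at least 10 counts in at least 10 of the 80 libraries. The 9 of these that the paper names by id were left out, which gave 984 genes of the 28140 in the whole table. They were ordered by the number in the id, taken as their order along the chromosome, and divided into 20 consecutive windows of 50 genes, with 34 in the last. The files held no coordinates, no sequences and no gene names, so distances are given in genes and no function is stated for an id. Of the 984 genes, 957 had enough reads in leaves and buds of both lines to be tested, and the other 27 had a mean of 3.21 to 7.36 counts per library. The low-count limit fell among genes of little expression. The 10 genes that reached 10 counts in exactly 10 libraries had means of 3.21 to 5.26 counts, and the 7 that did so in exactly 9 libraries and stayed out had means of 2.61 to 5.38.

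Genes on 1 chromosome are inherited together to a degree that depends on recombination between them. Differences between plant lines can therefore lie in stretches of neighbouring genes, through inversions, through linked regulatory variants, or through tandem duplicates, which are copies of a gene that arose beside the original and may be present in one line and missing or diverged in another. Plant chromosomes also tend to have arms rich in active genes and regions around the centromere that are rich in repeats and poor in them. The inland annual ecotype of *M. guttatus* lives in habitats that dry out in summer and flowers early, whereas the coastal perennial ecotype grows in cooler, wetter sites exposed to salt spray and flowers late. The comparison asks how the expression differences between an inland and a coastal line are laid out along LG5.

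The coastal perennial line, SWB-4, was sampled as leaves at the two-leaf (2leaf), four-leaf (4leaf), 6leaf and 8leaf stages and as floral buds. The inland annual line, LMC-17, was sampled at 2leaf, 4leaf and bud. Each of the 8 groups held 10 plants raised in 1 growth chamber under the same conditions, with 1 tissue taken per plant, and the groups are called Coast and Inland with the stage. Each ecotype was represented by a single accession, so a difference between ecotypes and a difference between these lines cannot be told apart, and in bulk tissue neither can fewer cells of a type and less RNA per cell.

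RNA was measured by 3′-Tag-Seq, which counts reads from the 3′ end of messenger RNA, and 1256776 to 6090402 reads per library were assigned to genes. Markers of each tissue were present in the groups labelled with it. The study had picked these genes from the same samples, so they are no independent check of the labels. The 7 photosynthesis and chloroplast genes that the study names summed to between 2973 and 7291 CPM in leaf libraries, where CPM are counts scaled to a common library size. In buds they summed to between 492 and 800 CPM in Coast and between 325 and 444 CPM in Inland, without overlap between the lines. Another 5 genes it names, for the cell wall, endocytic recycling and cell surface signalling, were taken as bud markers. They summed to at most 21.7 CPM in leaves, to 229 to 1969 CPM in Coast buds and to 1348 to 3714 CPM in Inland buds. No marker was at 0 counts in any group. The summed markers of buds thus moved with the line, and their part in the bud differences below was not tested. Inland 4leaf plant 4, Coast 2leaf plant 9 and Inland bud plants 6 and 7 stood apart in earlier results by their position on a principal component or their depth, and counts without these 4 libraries stand beside those that they moved.

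Expressed genes were not spread evenly along LG5. From the start of the chromosome to id number 500, between 68 and 78 of every 100 ids passed the low-count rule, and at most 6 of every 100 were without a single read. Between numbers 801 and 1200 only 30 to 40 of 100 passed, and 23 to 37 of 100 had 0 counts in all 80 libraries. From 1201 to 1600 the number passing was again 54 to 71 of 100. A second thin stretch, from 1601 to 1800, had 19 and 32 of 100 passing before and after number 1700, and 34 and 36 genes without a read. A window of 50 genes therefore spanned 62 consecutive ids in window 1 but 163 in window 12 and 206 in window 19. Over the whole of LG5, 54.3% of the rows passed and 15.6% had 0 counts. The other 13 linkage groups had between 46.1% and 66.1% passing and between 7.02% and 18.6% at 0.

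The LG5 genes took a larger share of the RNA in buds than in leaves. In the 6 leaf groups they held a mean of 3.98% to 4.09% of each library's counts, and single libraries lay between 3.55% and 4.35%. In buds the share was 4.88% ± 0.177 in Coast and 5.13% ± 0.133 in Inland (SD, n = 10 each). Every bud library was above every leaf library, while the Coast buds (4.43% to 5.11%) and the Inland buds (4.84% to 5.38%) overlapped.

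The lines differed at about as many LG5 genes as on an average chromosome, in both directions. A gene is called here when its adjusted p in edgeR's quasi-likelihood test, with Benjamini-Hochberg adjustment over all 16735 genes tested, was under 0.05. At 2leaf, 495 of the 957 LG5 genes were called, 250 of them higher and the others lower in Coast. These are 51.7% of the genes, where 50.2% of all genes tested were called, 25.5% higher and 24.7% lower in Coast. At 4leaf, 560 were called (58.5%), 271 higher and 289 lower in Coast, against 57.5% of all genes, 28.6% higher and 28.8% lower. In buds, 629 were called (65.7%), 303 higher and 326 lower in Coast, against 64% of all genes, 31.4% higher and 32.7% lower. The median log2 fold change of Coast over Inland on LG5 was 0.02, 0.00 and 0.00 at 2leaf, 4leaf and bud. The 13 other groups ranged from 45.2% to 55.6% called at 2leaf, from 54.4% to 60.6% at 4leaf and from 61.6% to 67.7% in buds. LG5 ranked 3 of the 14 at each of these stages, inside that range. The balance of directions depended on the scaling. With scaling by library size alone 59.1% of the called LG5 genes were higher in Coast at 2leaf, in place of 50.5%. In buds 56.5% were higher in Coast with upper-quartile scaling and 54.8% with library size alone, in place of 48.2%, so that the majority turned round.

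The typical size of the differences lay near the upper end of the range elsewhere, and very large differences were more frequent on LG5 than among all genes. The median absolute log2 fold change of LG5 genes was 0.52 at 2leaf, 0.58 at 4leaf and 0.65 in buds, against 0.48, 0.55 and 0.61 over all genes tested, which placed LG5 3, 2 and 2 of the 14 groups. Called genes with more than a 2-fold difference made up 23.9%, 27.2% and 31.9% of LG5 genes and 22.4%, 26.3% and 29.5% of all genes at the 3 stages. Called genes with a log2 fold change beyond 4 in either direction numbered 31, 45 and 35 on LG5. They were 3.24%, 4.70% and 3.66% of its genes, and 2.68%, 3.01% and 2.32% of all genes. The other groups had 1.75% to 4.75%, 2.12% to 5.26% and 1.28% to 3.74%.

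**Figure D1:**
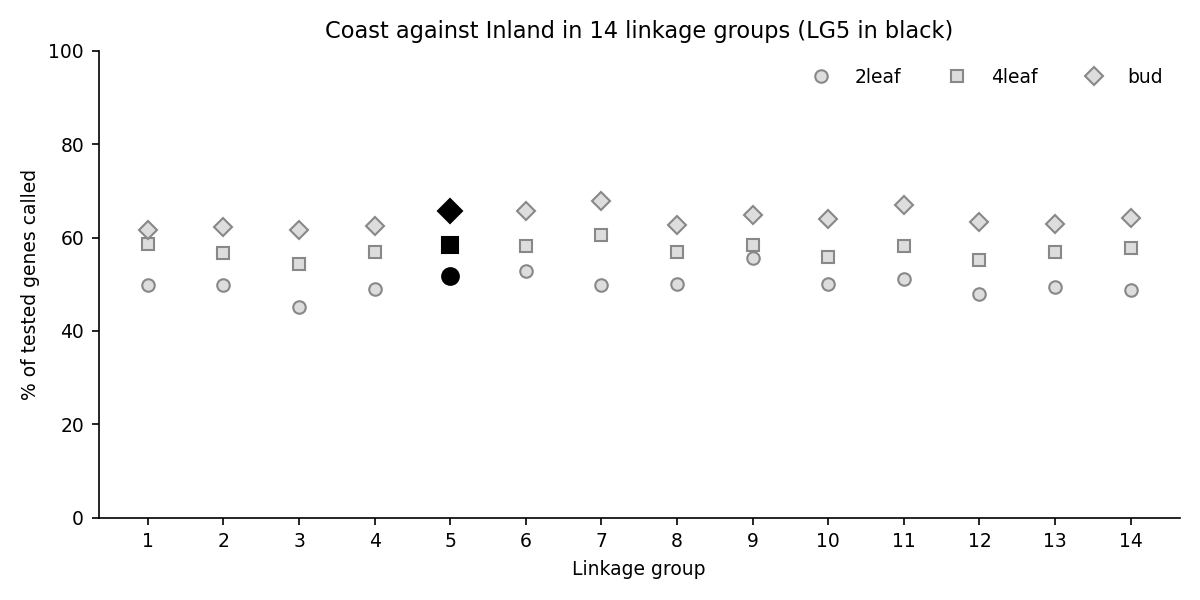
Percent of tested genes called between Coast and Inland (y axis, %) in each of the 14 linkage groups (x axis) at 2leaf (circles), 4leaf (squares) and bud (diamonds), with LG5 in black. LG5 lay at 51.7%, 58.5% and 65.7%, inside the range of the other groups at each stage.

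Libraries were made in 4 pools of 20, each with 2 or 3 plants of every group, and the same comparison was made within each pool. At 2leaf, 192 to 242 LG5 genes were called within a pool, or 20.4% to 24.9% of those tested, against 19.0% to 23% of all genes. The within-pool share was 24.1% to 36.1% at 4leaf (all genes 21.2% to 32.7%) and 30.6% to 42.2% in buds (all genes 27.7% to 39.4%). Fewer plants entered each of these fits. In buds of pool 1 LG5 lay at 39.3% and all genes at 39.4%, and the widest gap was in buds of pool 2, with 42.2% against 38.5%.

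Many LG5 genes kept 1 direction through development. At all 3 stages 288 genes were called in the same direction, 146 higher and 142 lower in Coast, which is 30.1% of the LG5 genes and 27.2% of all genes. The other groups had between 24.3% and 29.3%, so LG5 had the highest share of the 14. Without the 4 libraries that stood apart the number was 275. By contrast, 46 genes were called in opposite directions at 2leaf and in buds, 26 of them higher in Coast at 2leaf and 20 lower. They are 4.81% of the LG5 genes tested, where such genes made up 5.29% of all genes tested. Of the 361 LG5 genes called at both of these stages they are 12.7%, with 10.9% to 21.1% in the other groups. Between 2leaf and 4leaf only 5 of the 398 genes called at both stages changed direction. A further 165 genes were called in buds alone, or 17.2% against 17.3% of all genes. In both leaf stages but not in buds 81 were called, or 8.46% against 9.55% of all genes and 8.66% to 10.8% in the other groups. At no stage were 135 called, or 14.1% against 14.8%. Across LG5 genes, the log2 fold changes at 2leaf and in buds had a Pearson correlation of 0.68 over 957 genes, where the other groups had 0.50 to 0.66, and those at 2leaf and 4leaf one of 0.87 (others 0.81 to 0.88). Genes are not independent replicates, and these correlations are given as descriptions.

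The change of the line difference between stages was tested directly, by the interaction of line and stage. From 2leaf to 4leaf the difference changed for 69 LG5 genes (7.21%), in 19 towards Coast and in 50 towards Inland, against 6.48% of all genes, 2.54% towards Coast and 3.94% towards Inland. This direction depended on the libraries and the scaling. Without the 4 libraries that stood apart, 108 genes were called and 40.7% of them moved towards Coast, in place of 27.5%. The share towards Coast was 37.7% with voom and limma, and 15.5% with scaling by library size alone. From 2leaf to bud the difference changed for 339 LG5 genes (35.4%), in 159 towards Coast and in 180 towards Inland, against 36% of all genes, 18.5% towards Coast and 17.5% towards Inland. With upper-quartile scaling 342 genes were called, and the share towards Coast was 60.2% in place of 46.9%. That scaling moved the median log2 fold change of all genes by 0.14, so the split between directions is one relative to the scaling.

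**Figure D2:**
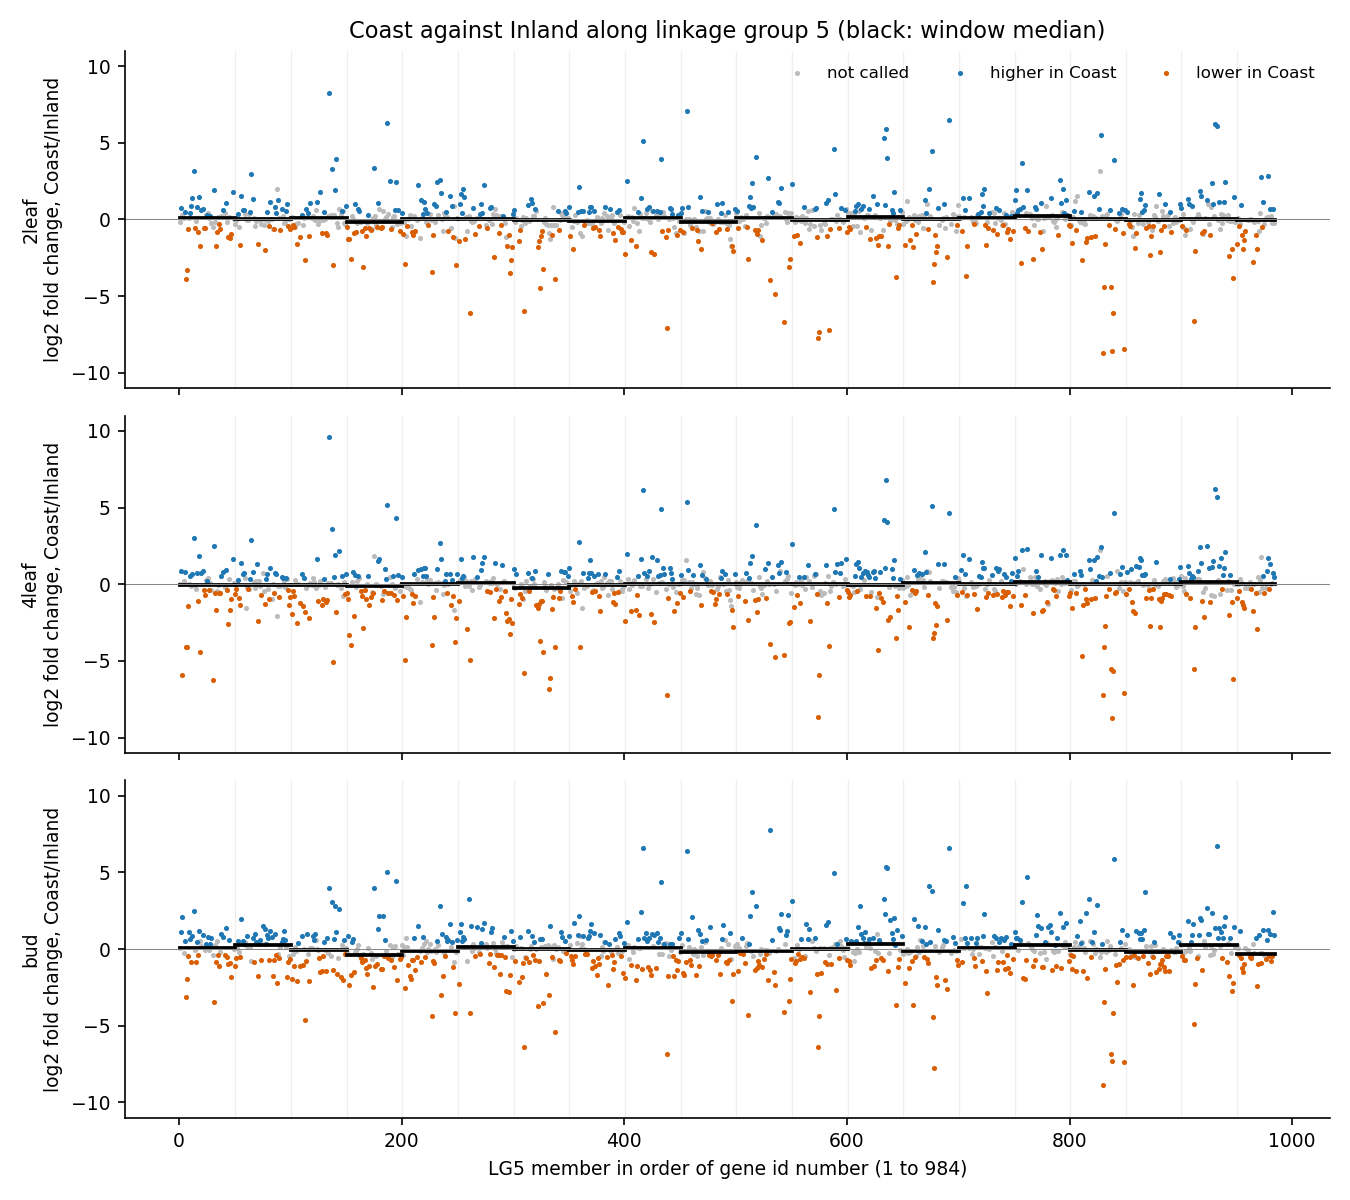
Log2 fold change of Coast over Inland (y axis) for each tested LG5 gene in order of id number (x axis, 1 to 984), at 2leaf, 4leaf and bud, with called genes in blue (higher in Coast) and orange (lower in Coast), others in grey, and the median of each window as a black bar. Window medians stayed between -0.39 and 0.34 along the whole chromosome, while single genes reached beyond 8 in both directions.

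Along the chromosome, called genes were found in every window and at every stage. At 2leaf, the share called ran from 42.9% in window 7 to 63.3% in window 1 (31 of 49 genes, 16 higher and 15 lower in Coast), with a median of 50.5% over the 20 windows. The 309 full windows cut in the same way on the other chromosomes had a median of 50% and ran from 12.2% to 71.4%, and 17 of them reached the level of window 1. In buds the LG5 windows lay between 60.0% (windows 10 and 17) and 75% (window 20, 24 of 32 genes), and those elsewhere between 42.6% and 84.1%. The SD over the LG5 windows was 6.06 percentage points at 2leaf and 4.00 in buds, against 8.20 and 7.07 elsewhere, whereas at 4leaf it was 8.83 against 7.36. The 95% interval of a window's share held the share of all LG5 genes in 20, 19 and 20 of the 20 windows at 2leaf, 4leaf and bud. The interval counts the genes of a window as independent, and each window is part of LG5. It is therefore given as a description and no test. Window 1 was the highest LG5 window at 2leaf in each fit of the pooled libraries, but ranked 1, 2, 6 and 9 within single pools.

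At 4leaf 1 window was close to the upper end of the range. Window 13, from Migut.E01080 to Migut.E01191, had 38 of 50 genes called (76%), 22 higher and 16 lower in Coast, and 1 of the 309 windows elsewhere, with 77.1%, was at or above it. The lowest LG5 window at this stage was window 10 with 44%. Window 13 had 36 genes called without the 4 libraries, and 16 to 24 within single pools, where it was the second highest LG5 window in each pool. Which window was highest depended on where the windows began. With windows shifted by 25 genes the highest share was 74%, from Migut.E01481 to Migut.E01543, and with windows of 100 genes it was 66.7%, from Migut.E01445 to Migut.E01580. Window 13 also holds Migut.E01090, which the paper names as MYC6, and Migut.E01133, a gene of the Sec1/munc18 family by its name there. Neither is among the 984 genes.

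Some windows leaned towards 1 line. In window 4 (Migut.E00197 to Migut.E00269), 10 genes were higher and 21 lower in Coast buds, with a median log2 fold change of -0.39, and 2 of the 309 windows elsewhere had a median as low. In window 13, 24 were higher and 11 lower in Coast buds, with a median of 0.34, which 4 windows elsewhere reached. Window 16 (Migut.E01370 to Migut.E01444) leaned to Coast at 2leaf, with 18 higher and 9 lower and a median of 0.25, and in buds, with 19 higher and 11 lower and a median of 0.28. Elsewhere 11 and 9 windows had medians as high. Window 7 (Migut.E00411 to Migut.E00482) leaned to Inland at 4leaf, with 11 higher and 19 lower and a median of -0.26, and 7 windows elsewhere had one as low. In window 20, at the end of the chromosome, 9 were higher and 15 lower in Coast buds, with a median of -0.30, which 11 windows elsewhere reached. Within the 4 pools the bud medians were -0.35 to -0.22 in window 4, 0.18 to 0.49 in window 13, 0.17 to 0.26 in window 16 and -0.48 to -0.05 in window 20. Those of window 16 at 2leaf were 0.08 to 0.24, and those of window 7 at 4leaf were -0.23 to -0.04. Each of these medians thus kept its sign in each pool, but its size moved with the fit. The counts of called genes did not always follow. Window 16 at 2leaf had 4 higher and 4 lower in Coast in pool 1, and 3 higher and 4 lower in pool 3. Window 20 in buds had 8 higher and 6 lower in pool 1. With upper-quartile scaling the bud medians were -0.26 in window 4, 0.42 in window 16 and -0.16 in window 20, with library size alone that of window 20 was -0.18, and with voom and limma that of window 7 at 4leaf was -0.13.

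**Figure D3:**
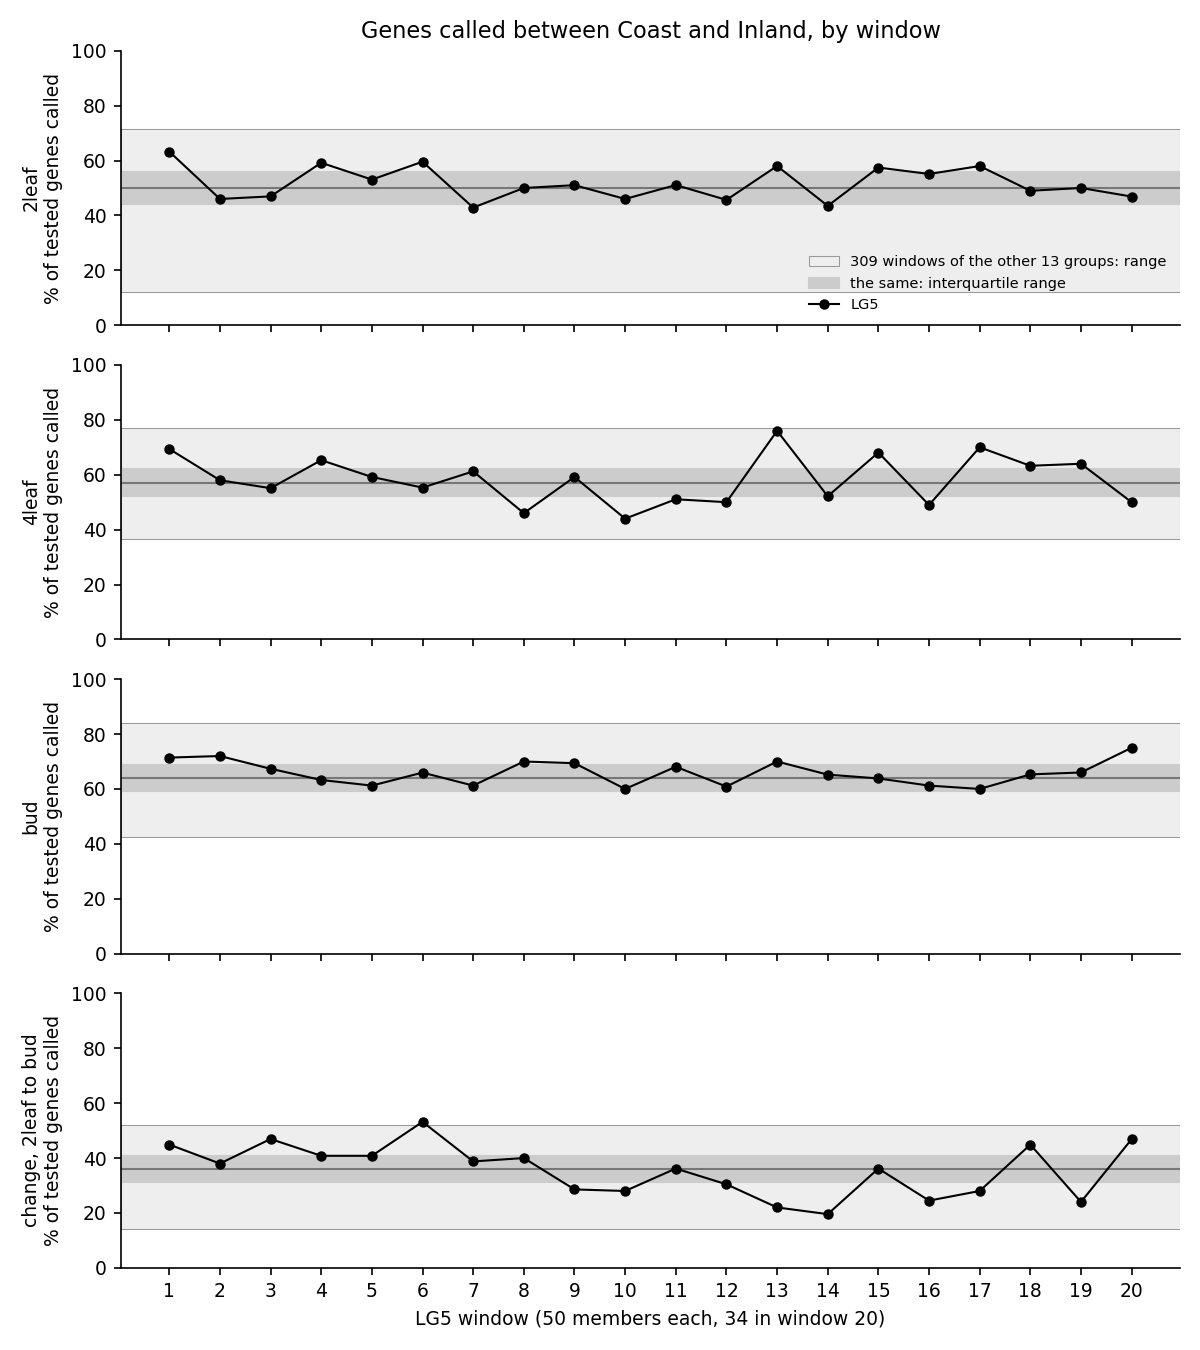
Percent of tested genes called (y axis, %) in each of the 20 windows along LG5 (x axis) at 2leaf, 4leaf and bud, and for the change of the line difference from 2leaf to bud; light and dark grey bands give the range and the interquartile range of the 309 windows on the other 13 linkage groups, and the grey line their median. Window 13 reached 76% at 4leaf, and the change to bud ran from 53.2% in window 6 to 19.6% in window 14.

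Few LG5 windows stood apart in the change of the line difference with the stage. For the change to bud, the 95% interval of a window's share is again a description. It held the LG5 share of 35.4% in 18 of the 20 windows. The interval lay above that share in window 6 (38.1% to 67.9%) and below it in window 14 (9.36% to 33.9%). From 2leaf to bud, 25 of 47 genes changed in window 6 (53.2%, Migut.E00336 to Migut.E00410), 15 towards Coast and 10 towards Inland, and 9 of 46 in window 14 (19.6%, Migut.E01193 to Migut.E01286). None of the 309 windows elsewhere was at or above 53.2%, their highest being 52.1%, and 2 were at or below 19.6%. Window 6 had 51.1% to 55.3% in the other fits of the pooled libraries, and remained the highest on LG5 in them. Within single pools it had 6.38% to 14.9% and ranked 1, 2, 9 and 11 on LG5, while window 14 ranked 14, 14, 18 and 20. The SD over the LG5 windows was 9.39 percentage points, and 6.67 elsewhere. Windows 1 to 8 together had 42.9% of their genes called (168 of 392) and windows 9 to 20 had 30.3% (171 of 565). This split was placed after the values were seen. The other 13 groups, cut at about the same fraction of their windows, had differences of -2.27 to 8.12 points. The place of the cut was chosen on LG5, so these values are a description and no test. The difference on LG5 was 12.6 points. It was 10.7 points without the 4 libraries, and between 9.19 and 13.0 points under the other tests, scalings and filters. Within the pools it was 4.22, 2.29, -1.23 and 2.69 points, so that it was turned round in 1 pool of 4. The line difference itself hardly set these stretches apart, with 52.6% and 51.2% called at 2leaf and 66.6% and 65.1% in buds. From 2leaf to 4leaf, window 4 had the highest share of any window on the 14 chromosomes, 20.4% (10 of 49 genes, 2 towards Coast and 8 towards Inland), followed by 19.1% in a window elsewhere. Window 4 was the highest on LG5 in each alternative fit of the pooled libraries, with 16.3% to 26.5%, but no gene of it was called for this change within a single pool, where at most 3 LG5 genes were.

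Over the 19 full windows of LG5, the share called had a Pearson correlation with the median log2 CPM of the window of -0.01 at 2leaf, 0.15 at 4leaf, 0.41 in buds and 0.28 for the change to bud, given as a description. Window 13 lies in the first long thin stretch, with 24 of its 112 ids at 0 counts, and had 76% called at 4leaf. By the share called at each stage, the windows with the most ids at 0 counts, 12 and 19, did not stand apart. Window 12, with 59 of its 163 ids at 0 counts, had 45.7%, 50% and 60.9% called at the 3 stages, and window 19, with 75 of 206, had 50%, 64% and 66%.

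The line differences of neighbouring LG5 genes were weakly alike in leaves. The log2 fold changes of adjacent tested genes had a Pearson correlation of 0.19 at 2leaf and 0.17 at 4leaf over 929 pairs, against -0.01 to 0.11 and -0.04 to 0.10 in the other groups. Spearman's rho was 0.12 and 0.11, against -0.02 to 0.08 and -0.03 to 0.09. In buds Pearson's r was 0.08 and rho 0.04, inside the range of the others (-0.04 to 0.09 and -0.02 to 0.08). Part of the leaf value came from a few genes of very large difference. Without the stretch from Migut.E01485 to Migut.E01506 and the pair Migut.E00995 and Migut.E00997, Pearson's r was 0.13 at 2leaf and 0.12 at 4leaf over 905 pairs, and 0.03 in buds. Adjacent genes can be copies of each other, and reads of near-identical copies may have been divided between them or discarded, so the values of neighbours are not independent.

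Runs of consecutive genes called in 1 direction were short. The longest had 6 genes at 2leaf, 7 at 4leaf and 5 in buds, while the longest of the other groups had 4 to 8, 5 to 8 and 5 to 8 genes. LG5 had 6, 5 and 6 runs of at least 5 genes at the 3 stages, and the other groups 0 to 5, 1 to 7 and 3 to 12. Both of its longest runs at 4leaf lay in windows 6 and 7 and were lower in Coast. The run from Migut.E00398 to Migut.E00409 had 7 genes with a median log2 fold change of -2.24, and the run from Migut.E00439 to Migut.E00445 had 7 with a median of -1.34. In window 6 as well, 5 genes from Migut.E00337 to Migut.E00342 were higher in Coast at 2leaf (median 1.49) and again in buds (median 0.82). In window 14, 5 genes from Migut.E01240 to Migut.E01245 were lower in Coast at 2leaf (median -2.12) and at 4leaf (median -2.65).

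The run of window 7 held neighbours with different courses from leaf to bud. These genes and those of the next runs were taken from the runs after their values were seen. Migut.E00442 measured 4.68, 10.9 and 29.6 CPM (lowest, median and highest of 10 plants) in Coast 2leaf and 138, 294 and 394 CPM in Inland 2leaf. In buds it measured 87.9, 106 and 136 CPM in Coast and 39.4, 67.7 and 87.7 CPM in Inland. The lines were far apart at 2leaf, nearly met in buds without overlap, and stood in the opposite order there. The log2 fold change was -4.48 ± 0.285 (SE) at 2leaf and 0.65 ± 0.242 in buds, a change of 5.14 ± 0.369 (edgeR adjusted p = 1.37e-17). Coast plants held 17.6 and 18.0 CPM as medians at 6leaf and 8leaf, close to their 4leaf level of 18.4 CPM. 

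A short way further on, Migut.E00444 took the same turn in a milder form. It went from 50.8, 71 and 80.4 CPM in Coast 2leaf against 89.6, 114 and 152 CPM in Inland 2leaf to 144, 223 and 306 CPM in Coast buds against 84.4, 132 and 194 CPM in Inland buds. The lines were apart at 2leaf and overlapped in buds, with log2 fold changes of -0.73 ± 0.128 and 0.65 ± 0.125. Both Migut.E00443, which lies between them, and Migut.E00441 moved towards Coast as well, and the 4 genes from Migut.E00441 to Migut.E00444 formed the longest run of LG5 for the change to bud, with a median of 1.30. The genes at either side did not turn. Migut.E00445 was lower in Coast at all 3 stages, with log2 fold changes of -3.20, -4.42 and -3.50, and Migut.E00440 was lower with -1.82, -1.52 and -3.69. Migut.E00446, the next gene, was not called at any stage.

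In window 13, 4 neighbouring genes from Migut.E01136 to Migut.E01141 were higher in Coast at all 3 stages, with medians of 4.65, 4.13 and 4.28 on the log2 scale. The last of them, Migut.E01141, measured 141, 215 and 273 CPM in Coast buds and 1.29, 5.08 and 10.6 CPM in Inland buds. At 2leaf it measured 46, 71.4 and 132 CPM in Coast and 1.42, 4.23 and 9.35 CPM in Inland. The lines did not overlap at either stage, and the log2 fold change rose from 4.01 ± 0.294 to 5.32 ± 0.294, a change of 1.30 ± 0.406 (edgeR adjusted p = 0.00900). Its neighbour Migut.E01138 differed less, by 0.97, 1.04 and 2.28 at the 3 stages.

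**Figure D4:**
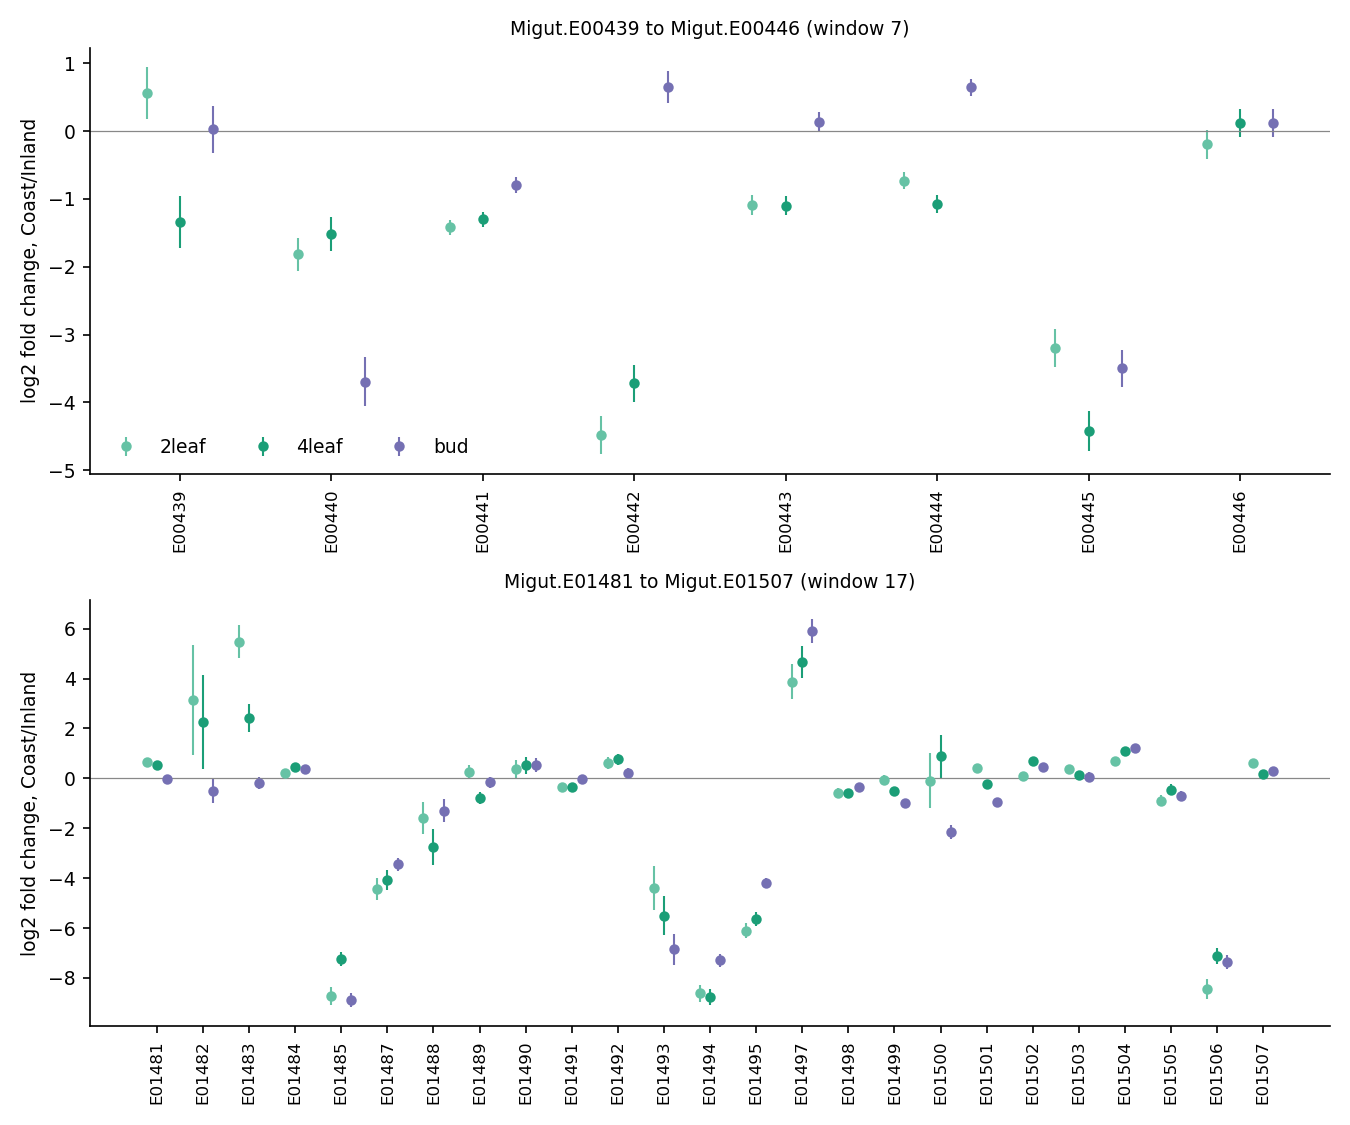
Log2 fold change of Coast over Inland (y axis, bars ± SE) at 2leaf, 4leaf and bud for neighbouring LG5 genes (x axis, in id order) of window 7 (top) and window 17 (bottom). Migut.E00442 went from -4.48 at 2leaf to 0.65 in buds, and genes near -8 in window 17 lay between neighbours near 0.

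Window 17 (Migut.E01445 to Migut.E01507) held more of the very large differences than any other LG5 window. Of the called genes beyond 4 on the log2 scale it had 7 of 31 at 2leaf, 8 of 45 at 4leaf and 6 of 35 in buds, and the next window had at most 4, 5 and 4. The genes highest in Coast lay in other windows. On all of LG5, 16 genes were seen in 1 line and nearly absent from the other, meaning a mean of at most 1 count per library in every group of one line and of at least 10 counts in a group of the other. Of these, 9 were seen in Coast and 7 in Inland. Coast had more groups in which a gene could reach that level, so the rule was not even between the lines. They are 1.63% of the LG5 genes, and the other groups had 0.833% to 3.06%. Along the chromosome 12 of the 16 lay in windows 12 to 19, which hold 400 of the 984 genes, and 5 lay in window 17. This span was drawn around the genes, its windows 15, 16 and 18 held none, and the rest lay in windows 3, 7 and 9. Reads of both lines were aligned to a single reference genome, so a gene that is missing or diverged in one line and a gene that is not expressed there cannot be told apart by counts.

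Window 17 had 4 such genes seen in Inland (Migut.E01485, Migut.E01493, Migut.E01494 and Migut.E01506) and 1 seen in Coast (Migut.E01497). Migut.E01487 and Migut.E01495 were also many times higher in Inland, with log2 fold changes at 2leaf of -4.42 ± 0.441 and -6.11 ± 0.297. Between them lay genes expressed in both lines. Migut.E01491 had log2 fold changes of -0.35, -0.33 and -0.03 at the 3 stages, and Migut.E01504, close to the far end, had 0.68, 1.10 and 1.22. The stretch was thus a mixture of near on-off differences in both directions and of small ones, and the window as a whole had a median log2 fold change of 0.04 at 2leaf. It also holds Migut.E01457, a gene named ST2A by the paper, which is not among the 984.

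The genes with the largest differences are described next, by the rule that took the 2 highest and the 2 lowest log2 fold changes at each stage and the highest and lowest change to bud. The rule considered called genes averaging 10 or more counts in one of the groups compared and having the same sign in each of the 4 pools. It gave 14 results for 10 genes. Fitted fold changes of genes near 0 counts and their errors depend on a small count that edgeR adds to each library. The ratio of the summed counts is therefore given as well, scaled to the sizes of the libraries compared. Such a ratio differs from that of the raw counts printed beside it. Its 95% exact interval covers counting error only.

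Migut.E01485 and Migut.E01494 were the genes lowest in Coast at 2leaf. Migut.E01485 had 0 counts in all 10 Coast 2leaf libraries, and 11.6, 13.6 and 17.3 CPM as lowest, median and highest in Inland 2leaf, with 371 counts in all. After the same scaling it was at least 144-fold lower in Coast, taking 3 counts over the group as the floor. The fitted log2 fold change was -8.72 ± 0.346 (edgeR adjusted p = 6.50e-28). In buds 1 read was found in Coast and 926 in Inland, where plants held 18.1, 22 and 30.0 CPM, a ratio of 1383 (248 to 54669.8). The lines were far apart at all stages, and the 6leaf and 8leaf groups of Coast had 1 read each as well. Migut.E01494 had 1 count in the Coast 2leaf group and 674 counts, or 16.6, 26.3 and 36.7 CPM, in the Inland 2leaf group, a ratio of 784 (140.2 to 31000.0), with a log2 fold change of -8.61 ± 0.332 (adjusted p = 2.20e-31). At 4leaf it was the lowest of the 957 genes tested with -8.75 ± 0.323, again with 1 count against 791, a ratio of 916 (164 to 36218). Its Inland level was 13.5, 17.3 and 22.1 CPM in buds.

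Migut.E00995 lies in the first long thin stretch of the chromosome and showed the same pattern, as did Migut.E00997 close beside it. At 4leaf it had 1 count in Coast and 758 in Inland, where plants held 13.9, 25.3 and 31.9 CPM, a ratio of 878 (157 to 34709). The log2 fold change was -8.64 ± 0.301 (adjusted p = 1.44e-33). Within Inland it was lower in buds (5.15, 6.65 and 9.04 CPM) than at 2leaf (31.3, 36.6 and 40.2 CPM), without overlap. Migut.E00997 measured 9.08, 31.1 and 52.5 CPM in Inland 2leaf and at most 0.755 CPM in Coast 2leaf. It too was lower in Inland buds, with a median of 5.24 CPM.

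Migut.E01241 was lower in Coast chiefly in buds. It measured 0.338, 0.913 and 1.31 CPM in Coast buds and 116, 187 and 228 CPM in Inland buds, a ratio of 206 (157 to 276). At 2leaf it measured 0, 0.339 and 0.935 CPM in Coast and 1.72, 3.14 and 4.19 CPM in Inland. The lines were apart at both stages, and the log2 fold change went from -2.93 ± 0.399 to -7.77 ± 0.237. The change of -4.83 ± 0.720 had an edgeR adjusted p of 2.20e-07. Its neighbour Migut.E01240 was likewise a bud gene of the Inland line, with 36.4, 53.7 and 61.8 CPM in Inland buds, 0.338, 2.32 and 4.90 CPM in Coast buds and at most 3.73 CPM in leaves.

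Migut.E00178 was the gene highest in Coast in leaves. It measured 31.6, 66.8 and 102 CPM in Coast 2leaf and 0, 0 and 1.19 CPM in Inland 2leaf, 2006 counts against 5. The scaled ratio of counts was 345 (148 to 1064). The log2 fold changes were 8.23 ± 0.337 at 2leaf (edgeR adjusted p = 4.42e-30) and 9.64 ± 0.393 at 4leaf (edgeR adjusted p = 3.50e-30). The value at 4leaf rests on a single Inland read, from plant 4, 1 of the 4 libraries that stood apart, and the ratio there was 1637 (293 to 64680.3). Without these libraries the fitted value was 10.60. In Coast its mean went from 68 CPM at 2leaf to 53.1 at 4leaf, 29.1 at 6leaf, 19.9 at 8leaf and 2.99 in buds. Coast buds (2.22 to 4.17 CPM) lay below all Coast leaf libraries and above all Inland buds, which held at most 1.70 CPM. 

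Migut.E00691, Migut.E01140 and Migut.E01727 were the other genes with much higher expression in Coast. Migut.E00691 measured 10.4, 14.2 and 20.5 CPM in Coast 2leaf and at most 0.395 CPM in Inland 2leaf, a ratio of 198 (54.4 to 1638), with a log2 fold change of 7.10 ± 0.404 (adjusted p = 3.80e-23). It was nearly level in Coast, with medians of 14.2 to 17.9 CPM over the 5 stages. Migut.E01140, of the run in window 13, measured 12.6, 25.2 and 31.3 CPM in Coast 4leaf and at most 0.632 CPM in Inland 4leaf, a ratio of 131 (55.8 to 404), with a log2 fold change of 6.83 ± 0.392 (adjusted p = 5.82e-23). It was lower in Coast buds, with 4.06, 6.82 and 9.87 CPM. Migut.E01727 lies in window 19, the window with the most silent neighbours, and measured 3.05, 5.79 and 10.3 CPM in Coast buds and at most 0.187 CPM in Inland buds, a ratio of 255 (45.5 to 10105). Its log2 fold change in buds was 6.75 ± 0.504 (adjusted p = 5.49e-18), and Coast leaf medians lay between 5.29 and 7.29 CPM. The lines did not overlap for these 3 genes at the stages given.

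Migut.E00833 had the largest change of the line difference on LG5, and the order of the lines turned round. In leaves it was low and higher in Inland, with 0, 0 and 0.522 CPM in Coast 2leaf and 0, 2.70 and 6.26 CPM in Inland 2leaf, groups that overlapped at 0. In buds it measured 47.6, 82.0 and 116 CPM in Coast and 0, 0.302 and 0.904 CPM in Inland, without overlap. The scaled ratio of counts was 239 (142 to 437). The log2 fold change was -3.93 ± 0.746 at 2leaf and 7.74 ± 0.440 in buds, a change of 11.67 ± 0.830 (edgeR adjusted p = 8.93e-18). Within single pools the change lay between 10.3 and 14.2. Coast leaves held medians of at most 0.636 CPM up to 8leaf, where 1 plant reached 8.15 CPM.

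Migut.E01483 had the largest change in the other direction. It was higher in Coast at 2leaf, with 0.935, 3.50 and 4.98 CPM against 0, 0 and 0.395 CPM in Inland, where 1 read was found in 10 plants, and the log2 fold change was 5.48 ± 0.657 with a ratio of 81.7 (14.3 to 3261). In buds it was expressed in both lines, with 5.04, 14.6 and 32.8 CPM in Coast and 8.47, 15.4 and 23.2 CPM in Inland. The lines overlapped there, and the log2 fold change was -0.19 ± 0.244 (edgeR adjusted p = 0.505). The ratio of Inland to Coast counts, scaled to library size, was 1.11 (0.999 to 1.23). The change was -5.67 ± 0.724 (edgeR adjusted p = 4.86e-09), with -7.73 to -3.64 within pools. It stands 2 ids before Migut.E01485, at the edge of the stretch of near on-off genes in window 17.

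**Figure D5:**
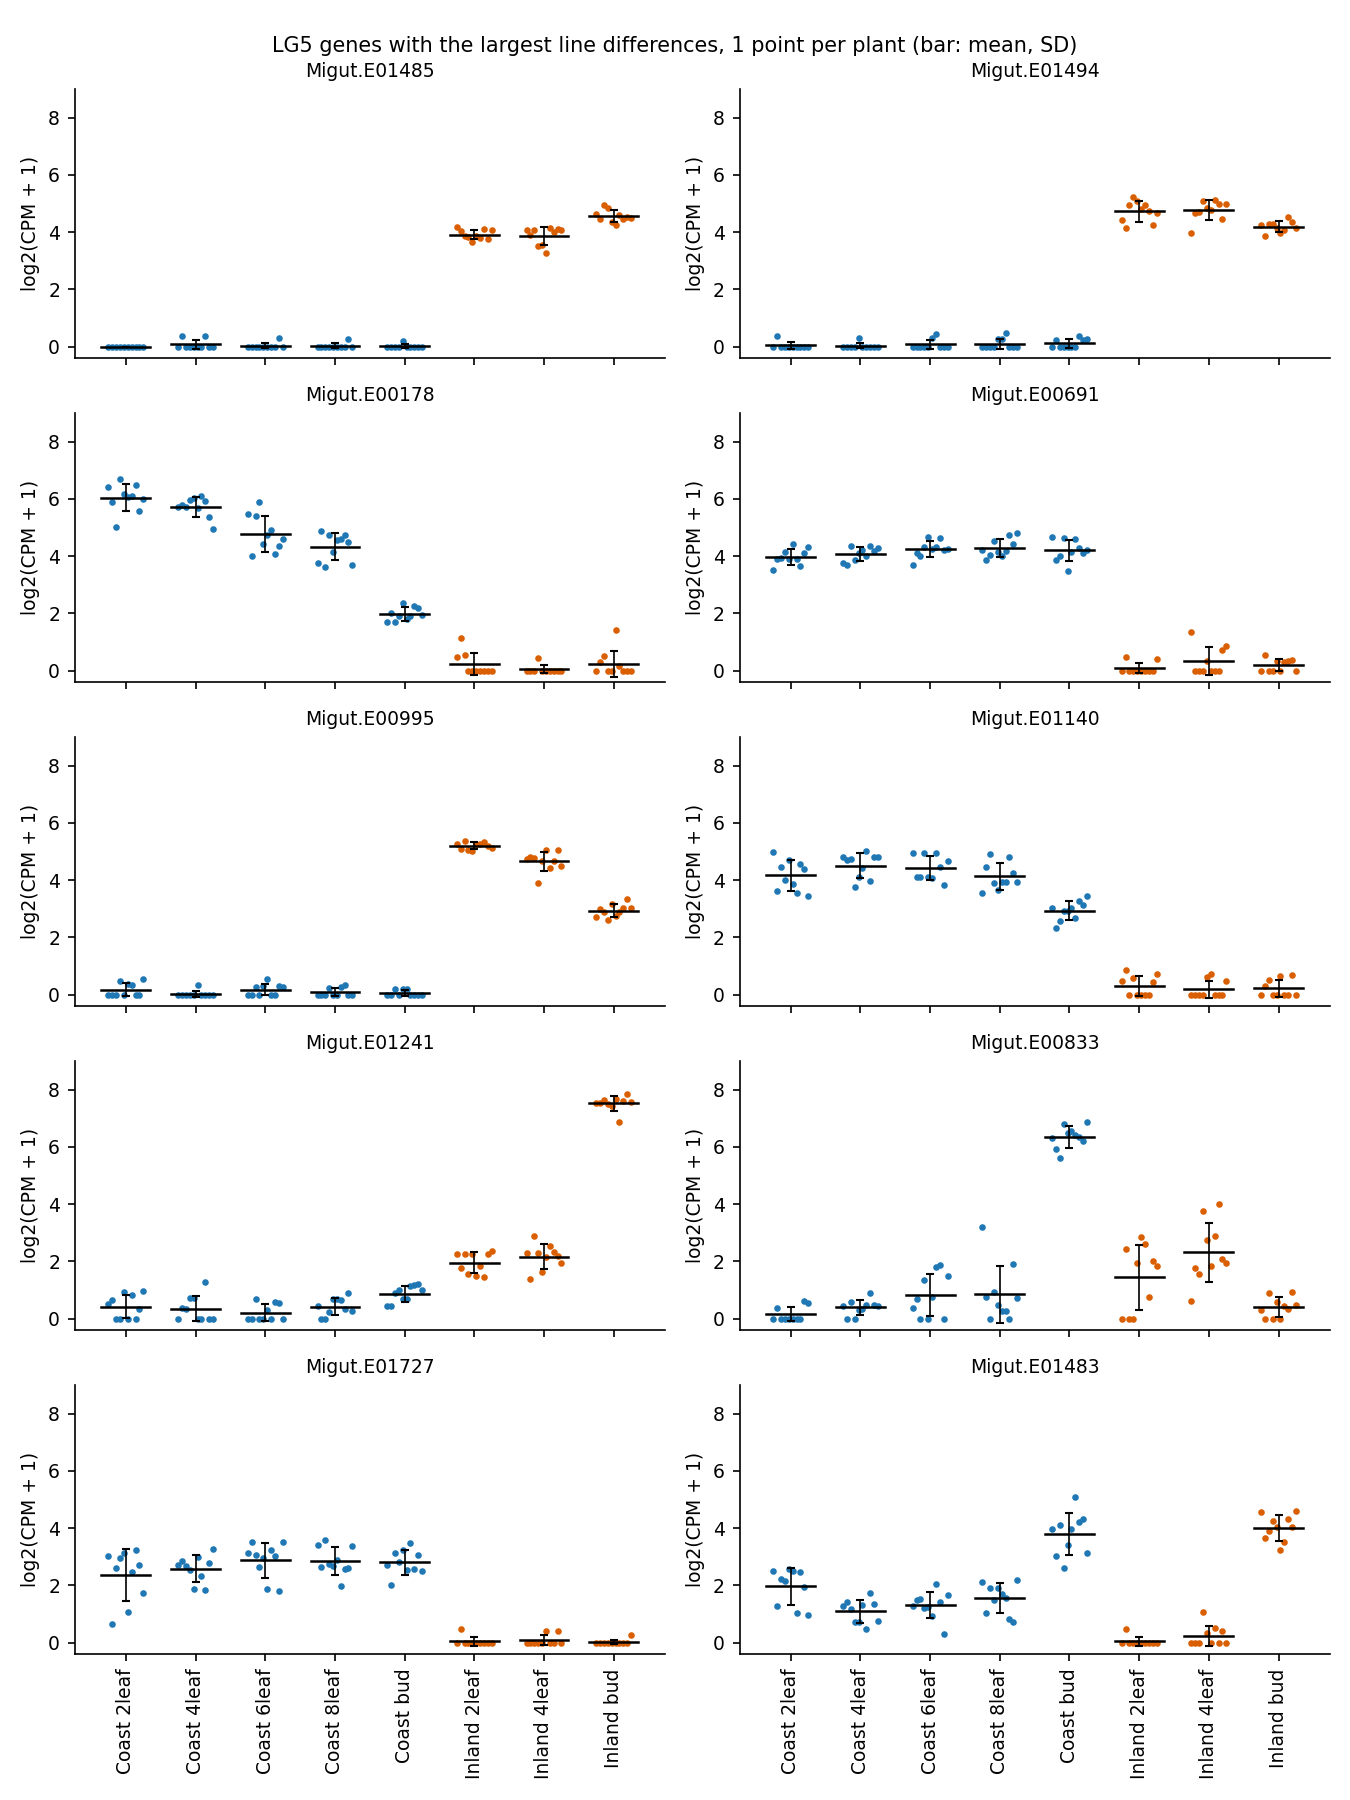
Expression of the 10 LG5 genes chosen by the rule, as log2(CPM + 1) (y axis) in each of the 8 groups (x axis), 1 point per plant, with mean and SD of 10 plants as bars; Coast in blue and Inland in orange. Migut.E01485 had 0 counts in every Coast 2leaf plant, and Migut.E00833 was high in Coast buds and lay above Coast in Inland leaves.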

How the data were processed

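RNA of 80 plants was measured by 3′-Tag-Seq, and the deposited values are whole-number counts of reads per gene. As the authors and the submitters' processing notes describe it, reads were trimmed with Cutadapt, aligned to version v2.0 of the *M. guttatus* genome by BWA-MEM, filtered with SAMtools and counted with HTSeq 0.6.1. The authors' methods state a filter on genes under 5 reads, but the table holds rows at 0 counts. It also has 6 lines of labels, and 0 count columns were without a sample. Library totals ran from 1256776 to 6090402.

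Tests used R 4.3.3 and edgeR 4.0.16 on 60 libraries (2leaf, 4leaf and bud), with filterByExpr (at least 10 counts, 15 in total), scaled by TMM and tested by quasi-likelihood F tests; the model held line, stage and the line by stage interaction (reference levels Inland and 2leaf). Adjustment was by Benjamini-Hochberg over 16735 genes, with a threshold of 0.05. F statistics and fold changes gave the standard errors. CPM used TMM factors of 80 libraries. Scripts were tested on simulated data. The study's own voom and limma (3.58.1), DESeq2 1.42.0, other scalings and filters, a pool term, a plant number block, all 80 libraries, single pools, other windows and leaving out 4 libraries were alternatives. Plant numbers did not pair the libraries. The named genes followed the rule given in the text. Those windows, members, lists and rules were chosen with earlier results of these data known. None of the 28140 ids was found in the RefSeq gene table used here, and no sequence is shown. Plants were the replicates.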

Additional observations from a re-analysis of the deposited data

Results flagged for a closer look

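A plant that lay far from the other 9 of its group was found in 4 of the 43 groups of values examined by Dixon's ratio, where chance gives about 1 in 20. The share of counts in LG5 genes was 3.55% in Coast 8leaf plant 7, with 3.90% to 4.26% in the others, and 4.43% in Coast bud plant 2, with 4.79% to 5.11% in the others. Migut.E01241 measured 116 CPM in Inland bud plant 7, 1 of the 4 libraries that stood apart by depth or position, and 172 to 228 CPM in the others. Migut.E01483 measured 32.8 CPM in Coast bud plant 7 and 5.04 to 18.9 CPM in the others.

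The difference between the lines itself changed with the stage for 69 LG5 genes from 2leaf to 4leaf and for 339 from 2leaf to bud, by the interaction term of edgeR. Among the genes chosen by the rule, the change to bud on the log2 scale was 11.67 ± 0.830 for Migut.E00833 (adjusted p = 8.93e-18) and -5.67 ± 0.724 for Migut.E01483 (adjusted p = 4.86e-09). It was -4.83 ± 0.720 for Migut.E01241 (adjusted p = 2.20e-07) and -4.21 ± 1.02 for Migut.E00178 (adjusted p = 0.000783). The changes of Migut.E00442 and Migut.E01141, which were taken from the runs, are given above.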

How the results depend on the processing

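Under the alternatives, 143 values of the counts of LG5 genes called and of the differences from the other groups stayed close to the value reported (within 1.5 times for a count), and 21 moved further. In the fits to the libraries of all pools, the LG5 share stayed above that of all genes at 2leaf, 4leaf and bud. Within pools the sign of such differences did not always hold. In pool 3 the change to bud was called for 7.96% of LG5 genes and 7.42% of all genes, where the main fit had 35.4% and 36%. Other values turned round: upper-quartile scaling put 60.2% of the changes to bud towards Coast instead of 46.9%, and windows 1 to 8 differed from windows 9 to 20 by -1.23 points in pool 3 instead of 12.6. The counts that moved came from fits with fewer samples. Within pools 1 to 4, the LG5 genes called were 242, 229, 192 and 205 at 2leaf, 303, 235, 340 and 283 at 4leaf, and 382, 411, 288 and 332 in buds. For the change of the difference they were 1, 2, 1 and 3 genes to 4leaf and 64, 97, 75 and 70 to bud. Without the 4 libraries that stood apart, 108 genes were called for the change to 4leaf instead of 69. Which of the 4 decides this was not tested. Plant numbers recur in the groups, but deviations of same-numbered libraries had a median correlation of -0.01 over 150 pairs and 7 of 60 libraries correlated best with their own number, so the numbers do not pair them. With plant number as a replicate block, 493, 565 and 639 genes were called at 2leaf, 4leaf and bud, and 68 and 344 for the changes. Scaling by library size alone moved the median log2 fold change of all genes by 0.12 at 2leaf and 0.11 in buds, and upper-quartile scaling moved it by 0.14 in buds. The share of LG5 genes called exceeded that of the other 13 groups by 1.90 points at 2leaf, 1.39 at 4leaf and 2.02 in buds, and by 1.16 to 3.07 points under the other tests, scalings, filters and model terms fitted to the libraries of all pools. Within pools the LG5 share was set against all genes tested, LG5 included. The gap there ran from 39.3% against 39.4% of all genes (pool 1, buds) to 42.2% against 38.5% (pool 2, buds). Neighbour correlations at 2leaf lay between 0.18 and 0.19 with other tests and scalings, and at 0.13 without the largest differences. The depth of 3′ tags limits what can be said of genes near 0 counts.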
